A study of Mus musculus with 12 samples.

Results

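The genes described here carry retinol or act in its metabolism: Rbp4, Stra6, Retsat, Rdh10, Aldh1a1, Aldh1a3, Crabp1, Crabp2 and Cyp26b1. They were taken by gene symbol from the deposited count table, and all 9 were found among its 54532 genes. RNA of mouse 3T3-L1 cells was sequenced in bulk. This wild-type line grows as fibroblast-like preadipocytes and, given the right hormones, fills with fat. Day 6 is the only time point, and each of 4 groups has 3 libraries, 12 in all. The untreated group received no cocktail by its label. The DMI group received dexamethasone (1 µM), IBMX (0.5 mM), which blocks cyclic nucleotide breakdown, and insulin (10 µg/ml) until day 2, then insulin alone for 2 days. The remaining groups received the same DMI cocktail together with luteolin or with quercetin. Both compounds are plant flavonoids, and quercetin carries a further hydroxyl group that makes it a flavonol where luteolin is a flavone. No dose or exposure time of either flavonoid stands in the labels, and the protocol text is the same on every sample, untreated ones included. The line is clonal in origin and models white adipocyte formation in a dish. Whether replicates were separate cultures is not said, so the p-values speak only of spread among these libraries, and that spread may be technical.

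Retinol travels in blood bound to RBP4 and can enter cells through the receptor STRA6. Inside the cell RDH10 oxidises retinol to retinaldehyde, enzymes of the ALDH1A family turn retinaldehyde into retinoic acid, CRABP proteins bind the acid, and CYP26 enzymes hydroxylate it for removal. RETSAT instead saturates a double bond of retinol and is known as an enzyme of adipose tissue. Retinoic acid acts through the nuclear receptors RAR, which pair with RXR, and RXR is also the partner of PPARG, the master regulator of fat cell formation.

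Library totals ran from 14522182 to 19436796 counts, and 14855 genes passed a low-count filter and were tested. Levels are given as CPM, counts per 1000000 counts of the TMM-scaled library total. The labelled cells matched their markers: the summed level of 10 adipocyte markers was 721 to 744 CPM in untreated libraries and 3054 to 22283 CPM in induced ones. Lpl, at a mean of 685 CPM, made up most of the untreated sum, with Adipoq at 0.869 and Fabp4 at 3.66 CPM. The DMI means of Lpl, Adipoq and Fabp4 were 7209, 1302 and 2565 CPM. Within each induced group the third library had the lowest sum, 6064 CPM against 19362 and 22283 with DMI, 5591 against 11694 and 13146 with luteolin, and 3054 against 6968 and 6786 with quercetin. The summed level of 6 preadipocyte and fibroblast markers ran the other way, at 23741 to 24524 CPM in untreated libraries and 6991 to 14664 CPM in induced ones. It was highest in the third library of each induced group. Col1a1 and Dlk1, at means of 16155 and 6775 CPM in untreated cells, made up most of this sum. Dlk1, Col1a1, Pdgfrb and Thy1 had lower means with DMI, but Pdgfra (590 to 635 CPM) and Cd34 (0.368 to 0.441 CPM) did not. Mitochondrial transcripts took 2.87% of counts in the third DMI library against 4.72% and 4.28%, and 2.91% in the third luteolin library against 4.41% and 4.73%, but in the third quercetin library they took 4.65% against 3.29% and 3.92%. Summed markers of macrophages and leukocytes reached at most 3.06 CPM, of endothelium 2.86 CPM, of epithelium 1.64 CPM and of hepatocytes 0.273 CPM, and Adgre1, Ucp1 and Ttr had 0 counts in all libraries. In bulk RNA fewer cells of a type and less RNA per cell cannot be told apart.

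The members that changed most in opposite directions on induction, Retsat and Cyp26b1, are both on chromosome 6, and the stretch before each start is shown because it is where the general transcription machinery and nuclear receptors could bind. The sequences are RefSeq promoter windows on GRCm38.p6, cut at the base before the gene start in the deposited table, and run 5′ to 3′ on the strand of the gene. Capitals mark matches, on either strand, to TATAAA (the TATA box), GGGCGG (the GC box), or AGGTCA and AGTTCA (half-sites that receptors such as RAR, RXR and PPARG can use).
Retsat, chr6:72598352-72598474, plus strand: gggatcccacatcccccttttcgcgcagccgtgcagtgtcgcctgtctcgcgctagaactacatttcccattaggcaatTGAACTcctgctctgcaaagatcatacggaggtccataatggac
Cyp26b1, chr6:84593909-84594060, minus strand: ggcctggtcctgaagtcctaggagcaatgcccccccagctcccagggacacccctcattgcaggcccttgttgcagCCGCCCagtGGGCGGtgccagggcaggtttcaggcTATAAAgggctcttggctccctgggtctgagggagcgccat
The 123 bases of Retsat held 1 match, to AGTTCA on the opposite strand, a motif that stands in 6.54% of all 32851 promoter windows over the same bases. The 152 bases of Cyp26b1 held a TATAAA (in 7.38% of windows) and 2 GGGCGG matches on opposite strands (in 17.0% of windows). Neither stretch held AGGTCA. The shares count the first 123 or 152 bases of every window, which for other genes need not end at the gene start. Matches of such short motifs are descriptions of these letters only. RefSeq promoter windows matched 6 of the 9 members.

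The secreted carrier Rbp4 (ENSMUSG00000024990, chromosome 19, 38116620 to 38125321, GRCm38) had 0 counts in all 12 libraries, before and after induction. A count of 0 allows up to 0.154 to 0.207 counts per 1000000 in a given library, and 0.0150 over the 199789794 counts of all libraries together. These limits cover counting error only. The deposited span of Rbp4 also differs from that in GENCODE M21, 38116629 to 38125281. Whether the 0 comes from the cells or from how reads were counted was not tested. Its neighbour Ffar4, a fatty acid receptor gene that ends 2357 bases away, was counted in induced cells, at a mean of 9.83 CPM with DMI.

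The uptake receptor Stra6 (chromosome 9, 58063788 to 58153996) was near the limit of detection. Its counts in libraries 1 to 3 were 16, 6 and 4 in untreated cells, 11, 7 and 11 with DMI, 4, 1 and 2 with luteolin added, and 7, 1 and 9 with quercetin added. The luteolin libraries lay below all DMI libraries, while the quercetin libraries overlapped with them. For luteolin against DMI the log2 fold change of Stra6 was -2.06 (95% interval -3.78 to -0.34, adjusted p = 0.732 from edgeR's quasi-likelihood fit), so the difference did not pass correction. Stra6 reached the low-count filter's level in 1 untreated and 2 DMI libraries and in 0 libraries with a flavonoid. The filter had thus already selected it for a high level without luteolin. Between DMI and untreated cells the log2 fold change was 0.22 (adjusted p = 0.837 by edgeR).

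**Figure D1:**
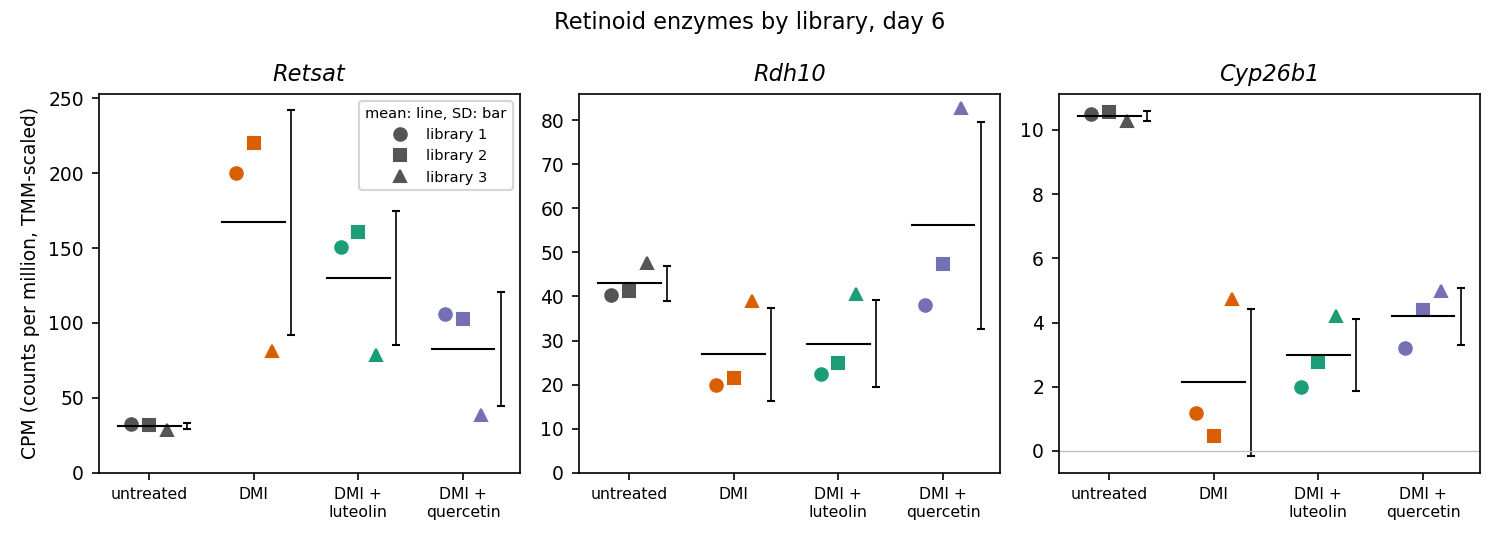
CPM of Retsat, Rdh10 and Cyp26b1 (vertical axes) in the 4 groups; points are libraries, with the shape giving the library number, lines are group means and bars 1 SD. Retsat is higher in all induced libraries than in untreated ones, Cyp26b1 is lower in all of them, and in every induced group the third library lies lowest for Retsat and highest for Rdh10 and Cyp26b1.

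Across the induction comparison, which asks what the cocktail did by day 6, Retsat rose while Cyp26b1 and Aldh1a3 fell. These 3 are the members called among the 8 that passed the low-count filter, beside a background of 27.1% of all tested genes called, 14.7% higher and 12.4% lower. Rbp4 was not tested. Aldh1a3 and Crabp1 reached the filter's level in all 3 untreated libraries and in no DMI library, so the filter had already selected them for a high untreated level, and the count of called members is read with that in mind.

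Retsat (ENSMUSG00000056666, chromosome 6, 72598475 to 72608425) stood at 32.4, 32.2 and 28.8 CPM in untreated libraries and at 200.3, 220.5 and 81.5 CPM with DMI. Every DMI library was above every untreated library, and the third had less than the other two by a wide margin. The means were 31.1 ± 2.04 and 167 ± 75.1 CPM (SD, n = 3), a 5.38-fold rise (2.43 ± 0.43 on the log2 scale, SE, with an adjusted p of 0.00198 from edgeR). Retsat was called under every alternative run. In the authors' deposited table Retsat was also above untreated with luteolin added (log2 fold change 2.10, adjusted p = 9.73e-19) and with quercetin added (1.42, adjusted p = 0.000263).

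Cyp26b1 (ENSMUSG00000063415, chromosome 6, 84571414 to 84593908), the retinoic acid hydroxylase, was the most even member in untreated cells, at 10.5, 10.6 and 10.3 CPM. With DMI it fell to 1.20, 0.480 and 4.74 CPM, which are 19, 7 and 77 counts. The third DMI library thus kept several times the level of the others, yet no DMI library reached the untreated range. The fall was 4.82-fold (-2.27 ± 0.54 on the log2 scale, SE, with an adjusted p of 0.00987 from edgeR). Without DMI replicate 1 the call ended (log2 fold change -1.98, adjusted p = 0.0523). The authors' deposited table has it below untreated in the luteolin group (-1.78, adjusted p = 3.91e-10) and in the quercetin group (-1.30, adjusted p = 1.19e-05) as well. The related clearance genes were scarcer, with Cyp26a1 at a mean of 0.790 CPM in untreated cells and 0.438 CPM with DMI (log2 fold change -0.82, adjusted p = 0.361) and Cyp26c1 below the filter.

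Rdh10 (ENSMUSG00000025921, chromosome 1, 16105774 to 16133734), which makes retinaldehyde from retinol, stood at 40.3, 41.2 and 47.5 CPM in untreated libraries and at 20.0, 21.6 and 39.0 CPM with DMI. The groups did not overlap, though the third DMI library lay just under the untreated ones. The log2 fold change was -0.68 (95% interval -1.37 to 0.02, adjusted p = 0.137 by edgeR), short of the threshold. Without DMI replicate 3 it was -1.05 (adjusted p = 0.0210), and with the third library of all induced groups left out, an alternative added once the data had been seen, it was -1.01 (adjusted p = 5.15e-06).

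Of the enzymes that make retinoic acid, Aldh1a3 (chromosome 7, 66390890 to 66427517) had 22, 24 and 21 counts in untreated libraries and 3, 3 and 9 with DMI. The means were 1.36 ± 0.0820 and 0.316 ± 0.206 CPM (SD, n = 3), without overlap, and the fall of 4.17-fold just passed (-2.06 ± 0.69 on the log2 scale, SE, with an adjusted p of 0.0427 from edgeR). This call ended without any untreated library (adjusted p = 0.0974, 0.104 and 0.0999 without replicates 1, 2 and 3), without DMI replicate 1 or 2 (0.163 and 0.160) and without luteolin replicate 1 or 2 (0.0503 and 0.0577). Aldh1a1 (chromosome 19, 20492715 to 20643462) had 31, 25 and 35 counts in untreated libraries and 13, 21 and 28 with DMI, which overlap (log2 fold change -0.47, 95% interval -1.22 to 0.27, adjusted p = 0.335). Aldh1a2, the third gene of this step, had 0 counts throughout.

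The paralog of Aldh1a1 behaved otherwise. Aldh1a7, which encodes a closely related rodent aldehyde dehydrogenase, went from 0.559, 0.418 and 0.544 CPM in untreated libraries to 103, 105 and 36.1 CPM with DMI, a rise of 159-fold (7.31 ± 0.78 on the log2 scale, SE, with an adjusted p of 0.000143 from edgeR). Aldh1a7 reached the low-count filter's level in 0 untreated libraries and in all 3 DMI libraries. The filter had thus already selected it for a high induced level, and its untreated level rests on 25 counts over 3 libraries. Per length, in deposited FPKM, Aldh1a7 was at 0.614 to 0.693 times Aldh1a1 in untreated libraries and at 50.1 to 302 times in DMI libraries. The sources used here do not say how reads matching both genes were counted. Of the 50-base words of Aldh1a1 coding transcripts in GENCODE M21, 6.06% also occur in Aldh1a7, and of the 100-base words 0.0401%.

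The retinoic acid binding proteins were sparse. Crabp1 (chromosome 9, 54764748 to 54773110) had 12, 18 and 14 counts in untreated libraries and 0, 6 and 4 with DMI, without overlap (log2 fold change -2.01, 95% interval -3.81 to -0.21, adjusted p = 0.0923 by edgeR). Crabp2 (chromosome 3, 87948666 to 87953376) had 8, 7 and 11 counts in untreated libraries and 10, 4 and 4 with DMI, which overlap (log2 fold change -0.45, adjusted p = 0.535).

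**Figure D2:**
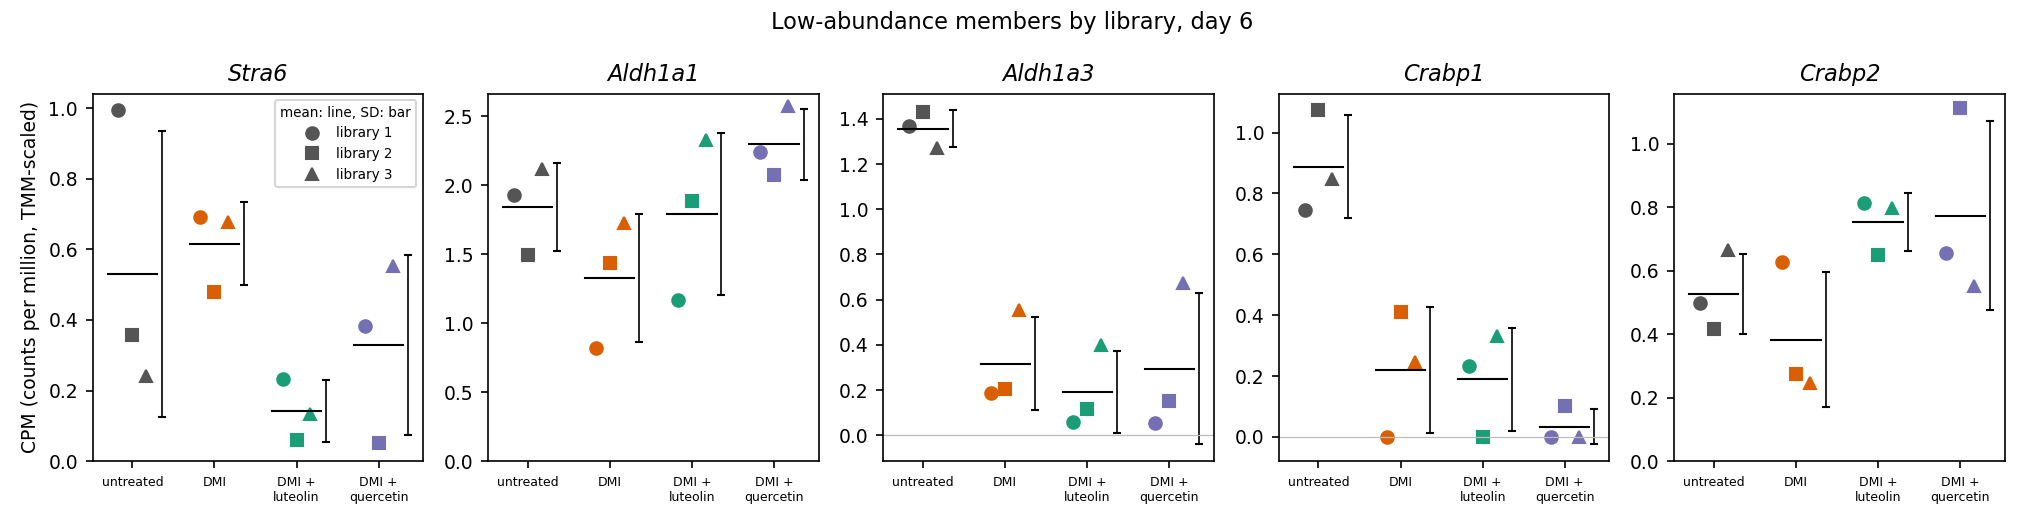
CPM of the scarce members Stra6, Aldh1a1, Aldh1a3, Crabp1 and Crabp2 in the 4 groups; points are libraries, lines group means and bars 1 SD. The highest value is 2.58 CPM, for Aldh1a1 with quercetin, and Aldh1a3 and Crabp1 are higher in the 3 untreated libraries than in any induced library.

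Between genes, levels can be set side by side only per length, here in deposited FPKM, with the range over the 3 libraries. In untreated cells the order was Rdh10 (9.45 to 11.1 FPKM), Retsat (7.90 to 8.94), Cyp26b1 (1.87 to 1.92), Crabp1 (0.908 to 1.30), Crabp2 (0.307 to 0.489), Aldh1a1 (0.294 to 0.417), Aldh1a3 (0.267 to 0.301) and Stra6 (0.0403 to 0.167). Among neighbours in this order Crabp2, Aldh1a1 and Aldh1a3 overlapped and the others did not. With DMI the order opened with Retsat (23.2 to 62.3 FPKM) and Rdh10 (4.80 to 9.47). Cyp26b1 followed at 0.0896 to 0.894 FPKM and overlapped there with all members below it.

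The ratio of Retsat to Rdh10 within a library needs no scaling between libraries. It was 0.946, 0.920 and 0.712 in untreated libraries (FPKM over FPKM), 11.8, 12.02 and 2.45 with DMI, 7.95, 7.58 and 2.27 with luteolin added, and 3.27, 2.55 and 0.549 with quercetin added. The third quercetin library, with the lowest adipocyte marker sum of all induced libraries (3054 CPM), had a ratio below all 3 untreated libraries. The part of the adipocyte level in this ratio was not tested.

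**Figure D3:**
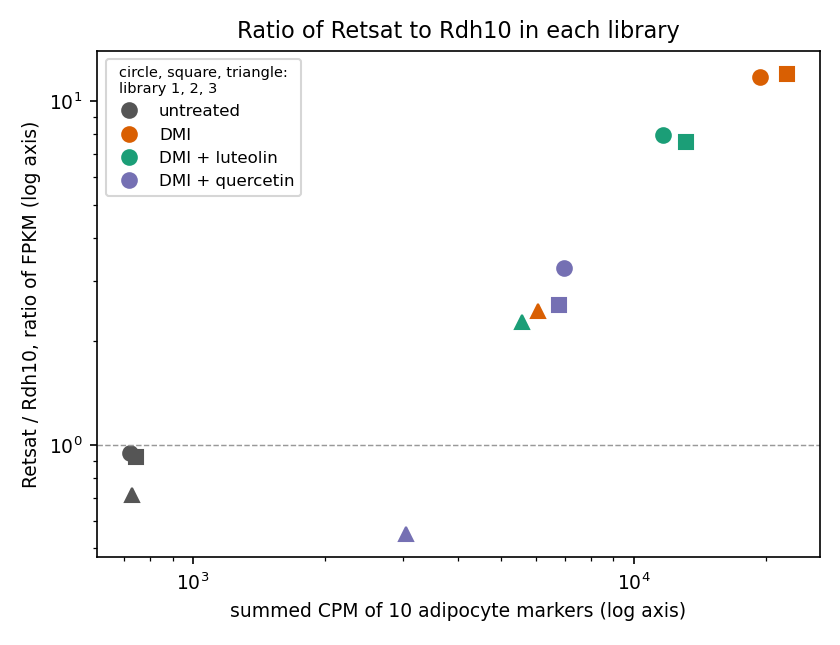
Ratio of Retsat to Rdh10 in deposited FPKM (vertical, log axis) against the summed CPM of 10 adipocyte markers (horizontal, log axis) in each of the 12 libraries; colour gives the group and shape the library number. The first and second DMI libraries have the highest ratios, 11.8 and 12.02, and the third quercetin library has the lowest, 0.549.

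The wider pathway was read from a list of 41 other retinoid genes, of which 25 were tested. On induction 15 of the 25 rose and 0 fell. Of these, Rdh12, Aldh1a7 and Rxrg reached the low-count filter only in induced libraries, so the filter had already selected them for a high induced level. Among the 22 genes over the filter level in an untreated library, 12 rose and 0 fell, beside 14.7% of all tested genes higher and 12.4% lower. The median log2 fold change of the 25 was 0.97 and that of all tested genes -0.04. By role, 3 of 4 tested carrier, transport and storage genes rose (Scarb1, Dgat1 and Lipe), as did 6 of 10 oxidoreductases (Rdh12, Rdh14, Dhrs3, Dhrs4, Dhrs9 and Adh1), the retinoic acid carrier Fabp5, 2 of 5 receptors and 3 of 6 tested target genes (Dhrs3 again and Nrip1 among them). Lipe and Dgat1 are best known for hydrolysis and synthesis of triglycerides, and Fabp5 as a fatty acid carrier, so their place in a retinoid list covers only some of what they do. Leaving out any untreated library, or DMI replicate 1 or 2, left 12 rises, with Rxra and Dhrs9 among those lost. These fits called 8.34% to 11.2% of all tested genes higher, against 14.7% with all libraries. With the third library of all induced groups left out, 19 rose and 3 fell, the 3 being Rara, Rarg and Adh7, in a fit that called 27.5% of all tested genes higher and 25.2% lower.

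Among these genes Lipe, which encodes hormone-sensitive lipase, an enzyme that also cleaves retinyl esters, rose 58.2-fold from 10.5 to 611 CPM (adjusted p = 0.000337 by edgeR). Dgat1, an acyltransferase that can esterify retinol, rose 9.58-fold (adjusted p = 0.000649), and the alcohol dehydrogenase gene Adh1 rose 4.81-fold with little spread, from 7.12 ± 0.166 to 34.3 ± 2.09 CPM (SD, n = 3, adjusted p = 0.000186 by edgeR). Rdh12, a retinaldehyde reductase gene, went from 0.101 to 4.11 CPM (adjusted p = 0.000720). Lrat, which encodes the main retinol-esterifying enzyme of liver, had 0 counts in all 12 libraries, as had the intestinal carrier gene Rbp2.

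Of the receptors, Rxrg had 0 counts in untreated libraries and 6.98, 8.22 and 1.35 CPM with DMI, at least 89.1-fold higher against a floor of 3 counts over the untreated group (adjusted p = 0.000846 by edgeR). Rxra rose from 154 to 237 CPM (log2 fold change 0.63, adjusted p = 0.0297). Rara went from 88.3 to 72.3 CPM (log2 fold change -0.29, adjusted p = 0.135) and Rarg from 94.99 to 68.5 CPM (-0.47, adjusted p = 0.137), while Rxrb was at 50.2 and 52.8 CPM (0.07, 95% interval -0.33 to 0.47, adjusted p = 0.808). Rarb, a classical target of retinoic acid, was below the filter, with at most 0.242 CPM in any library.

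**Figure D4:**
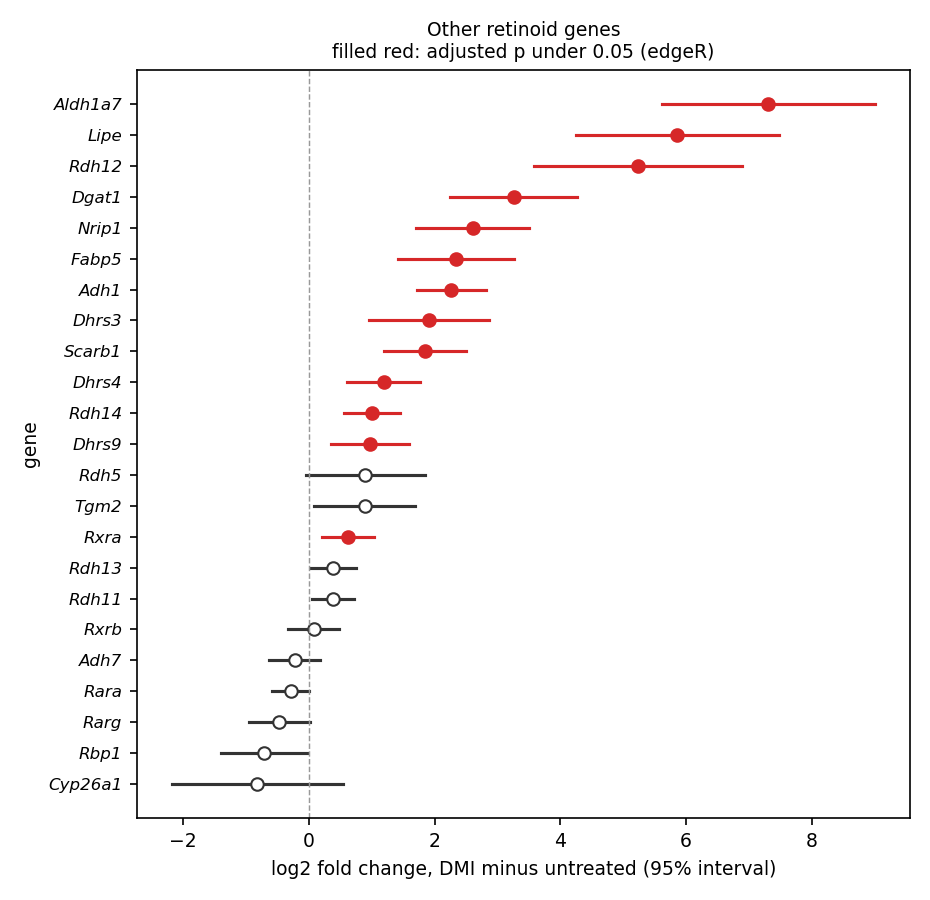
Log2 fold change, DMI minus untreated, with its 95% interval (horizontal axis) for 23 of the 25 tested genes of the wider retinoid list; filled red points passed an adjusted p of 0.05 and open points did not. Rxrg is left out because untreated libraries had 0 counts, 1 further gene is not shown, and Aldh1a7 stands highest at 7.31.

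Luteolin with DMI was set against DMI alone, the question the series names. No member passed: 0 of 8 by edgeR and 0 by DESeq2, with 1, Stra6, at an unadjusted p under 0.05, beside a background of 0.0202% of all tested genes called and 6.09% at an unadjusted p under 0.05. Stra6 had passed the low-count filter through untreated and DMI libraries only, so its low level with luteolin is read with that in mind. Retsat stood at 151, 161 and 78.4 CPM with luteolin added, within the DMI range in libraries 1 and 2 and just under it in the third (log2 fold change -0.36, 95% interval -1.24 to 0.51, adjusted p = 0.995 by edgeR). Rdh10, at 22.3, 25.0 and 40.6 CPM, followed the DMI libraries number by number (0.12, 95% interval -0.58 to 0.82, adjusted p = 0.998). Cyp26b1 was at 1.98, 2.77 and 4.19 CPM, above the first and second DMI libraries and below the third (0.46, 95% interval -0.75 to 1.67, adjusted p = 0.998).

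Crabp2 had 14, 11 and 12 counts with luteolin added, above all DMI libraries in CPM (log2 fold change 0.96, 95% interval -0.06 to 1.97, adjusted p = 0.838 by edgeR). Aldh1a1 had 20, 32 and 35 counts, Aldh1a3 1, 2 and 6, and Crabp1 4, 0 and 5, all overlapping with DMI. With the replicate number as a block, the calls over all genes went from 3 to 25, and still 0 members passed. These data do not show that the first and second libraries of this pair of groups match by number. With the third library of all induced groups left out, 2 members passed, Retsat (log2 fold change -0.41, adjusted p = 0.00777) and Cyp26b1 (1.501, adjusted p = 0.0184). That alternative leaves 2 libraries in each induced group and called 10.4% of all tested genes.

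The quercetin comparison uses the same 3 DMI libraries as the luteolin one. With quercetin and DMI against DMI, Retsat and Rdh10 lay on opposite sides, but neither passed. The count was 0 of 8 members by edgeR, beside 1.01% of all tested genes called (0.162% higher, 0.848% lower), and 4 were at an unadjusted p under 0.05, beside 21.3% of all tested genes. DESeq2 called 1, Rdh10 (log2 fold change 1.04, adjusted p = 0.0334), beside 6.62% of all tested genes. Retsat was at 106, 103 and 38.6 CPM with quercetin added, so libraries 1 and 2 lay between the third DMI library and the other two, and the third lay just above the untreated range (log2 fold change -1.02, 95% interval -1.90 to -0.14, adjusted p = 0.179 by edgeR). Rdh10 was at 38.1, 47.5 and 82.7 CPM, above the first and second DMI libraries in each case, with the third beyond every other library of the study (1.06, 95% interval 0.36 to 1.76, adjusted p = 0.106). Cyp26b1 was at 3.22, 4.40 and 4.97 CPM, overlapping with DMI through the third DMI library (0.95, 95% interval -0.23 to 2.14, adjusted p = 0.337).

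Without DMI replicate 3, 3 members passed by edgeR, beside 17.4% of all tested genes in that fit: Retsat was lower (log2 fold change -1.35, adjusted p = 0.0236), and Rdh10 (1.43, adjusted p = 0.0107) and Cyp26b1 (2.30, adjusted p = 0.00400) were higher. With the third library of all induced groups left out the same 3 passed (-0.98, 1.07 and 2.18, adjusted p = 1.48e-06, 1.95e-05 and 0.000225), but so did 33.4% of all tested genes, so a count of 3 of 8 is near the background. With all libraries kept, 2 members passed under the replicate block (Retsat and Rdh10, beside 9.39% of all tested genes) and 3 without a low-count filter (beside 5.98%). The third DMI library is also the one with 6064 CPM of adipocyte markers against 19362 and 22283. In each induced group the library with the lowest marker sum had the lowest Retsat and the highest Rdh10 and Cyp26b1, and also the highest preadipocyte marker sum, 14664 CPM against 9348 and 8927 in the DMI group. The part of this spread in the differences was not tested.

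Aldh1a1 had 41, 41 and 42 counts with quercetin added, above all DMI libraries in CPM (2.30 ± 0.257 against 1.33 ± 0.463, SD, n = 3; log2 fold change 0.79, 95% interval 0.05 to 1.52, adjusted p = 0.206 by edgeR). Crabp2, at 12, 22 and 9 counts, overlapped with DMI (1.01, adjusted p = 0.234). Crabp1 had 0, 2 and 0 counts, and the pooled counts gave a ratio of DMI to quercetin of 5.82. Its 95% interval of 1.24 to 54.6 covers counting error only, not the spread among libraries. By edgeR the log2 fold change of Crabp1 was -2.34 (95% interval -5.15 to 0.47, adjusted p = 0.320). Aldh1a3 had 1, 3 and 11 counts, with the quercetin libraries on both sides of the DMI ones (-0.17, adjusted p = 0.921).

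**Figure D5:**
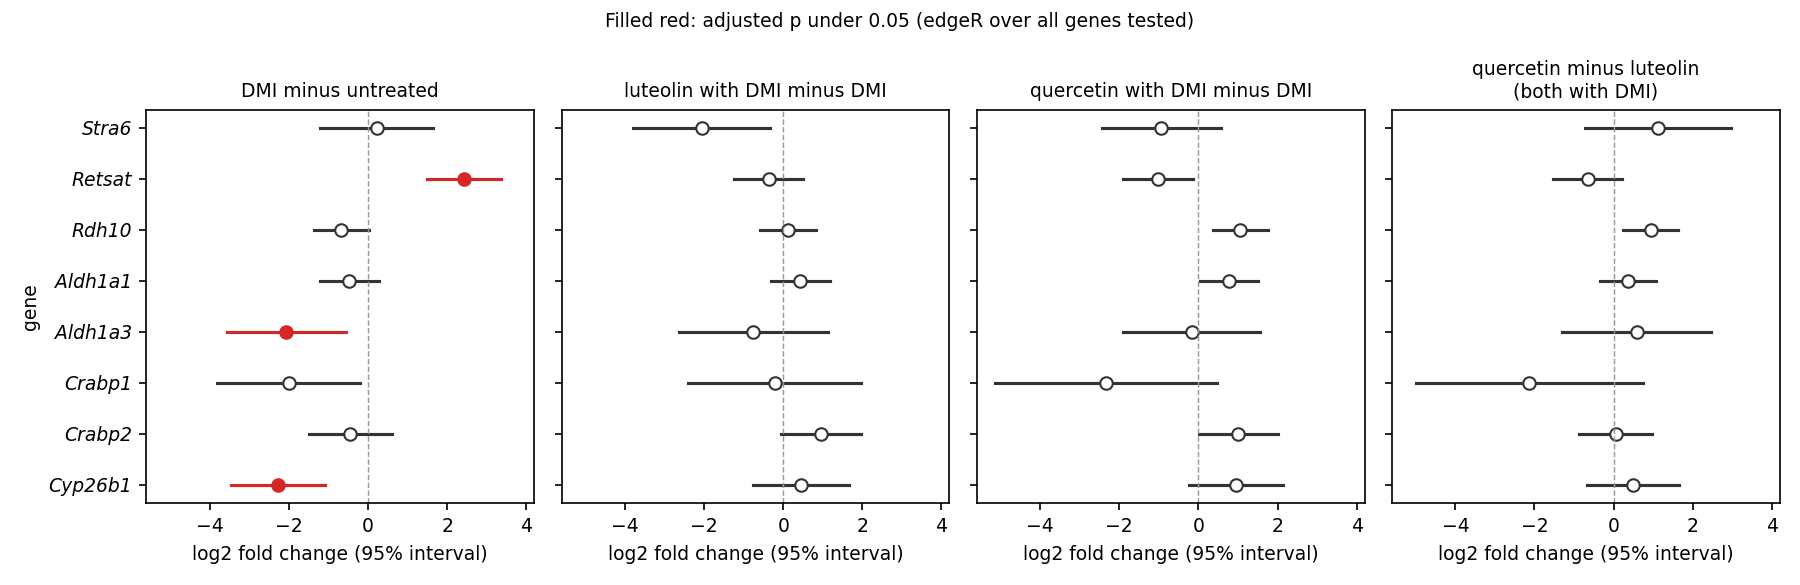
Log2 fold change with its 95% interval (horizontal axes) for the 8 tested members in the 4 comparisons; filled red points passed an adjusted p of 0.05 over all tested genes. Retsat, Aldh1a3 and Cyp26b1 passed for DMI minus untreated, and no member passed in the other comparisons.

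In the wider list, 0 of 25 genes passed with luteolin by edgeR and by DESeq2, beside 0.0202% and 0.323% of all tested genes. By edgeR 3 of the 25 were at an unadjusted p under 0.05, beside 6.09% of all tested genes. The median log2 fold change of the 25 was -0.18 (all tested genes -0.02). With quercetin 2 of the 25 fell and 0 rose, beside 0.848% of all tested genes lower (median -0.33, all tested genes 0.02). The first is Tgm2, a transglutaminase gene known to respond to retinoic acid, from 14.2 to 3.16 CPM (log2 fold change -2.15, adjusted p = 0.0420 by edgeR), with the quercetin libraries at 4.48, 3.54 and 1.47 CPM all below the DMI ones at 14.2, 20.6 and 7.82 CPM. The other is Rdh12, from 4.11 to 0.553 CPM (-2.85, adjusted p = 0.0484). Both calls ended, leaving 0 of 25, with only the 6 libraries compared and without any untreated library, DMI replicate 1 or 2, luteolin replicate 1 or 2, or quercetin replicate 2 or 3. Those fits called 0% to 0.138% of all tested genes, against 1.01% in the main fit. The call of Rdh12 alone ended with library totals only (0.397% of all tested genes called) and at 1 CPM in 3 libraries (0.402%). Other fits called more: 6 lower with DESeq2 (beside 4.91% of all tested genes lower), 8 with the replicate block (6.06%), 11 without a low-count filter (3.94%), 9 lower and 1 higher without DMI replicate 3 (10.2% lower and 7.15% higher), and 13 lower and 2 higher with the third library of all induced groups left out (16.4% and 17.0%). Rxrg, the receptor gene first counted on induction, was at 1.53, 1.16 and 0.614 CPM with quercetin added (-2.30, adjusted p = 0.0956) and at 2.04, 2.83 and 0.998 CPM with luteolin added (-1.48, adjusted p = 0.794).

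The flavonoids were also set against each other, as 1 pair at doses that the labels do not give. None of the 8 members passed by edgeR or by DESeq2, which gave no adjusted p for 4 of them. Over all tested genes 0% were called by edgeR, with 1327 at an unadjusted p under 0.05 and 3 called by DESeq2. Rdh10 was higher with quercetin than with luteolin by 0.94 on the log2 scale (95% interval 0.24 to 1.63, adjusted p = 0.541 by edgeR), and its groups overlapped. For Retsat the interval ran from -1.53 to 0.22 around -0.66, for Cyp26b1 from -0.66 to 1.65 around 0.50, for Aldh1a1 from -0.36 to 1.07 around 0.36 and for Crabp2 from -0.87 to 0.97 around 0.05. Of these 4 intervals, those of Cyp26b1 and Crabp2 reach past 1.5-fold in both directions. With the third library of all induced groups left out, Retsat (-0.58, adjusted p = 0.000854) and Rdh10 (0.86, adjusted p = 0.000605) passed, beside 13.8% of all tested genes.

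Across the 12 libraries the genes whose log2 CPM ran most like that of Retsat, among 10197 protein-coding genes with a mean of 5 CPM or more, were Mknk2 (Pearson r = 0.996), Cyc1 (0.995), which encodes a subunit of the respiratory chain, and Naaa (0.995). For Rdh10 they were Pid1 (0.977), Rcn2 (0.975) and Med17 (0.968), and for Cyp26b1 they were Rassf5 (0.980) and Myo1e (0.978). The 12 libraries share treatments within groups, so these values describe likeness over 4 conditions. Over the same libraries Retsat and Cyp26b1 stood at r = -0.914 and Retsat and Rdh10 at r = -0.781.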

How the data were processed

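Gene counts of 12 libraries were deposited as raw counts per gene, and the submitters' processing notes name featureCounts 1.5.0-p3 and CASAVA 1.8.2. Aligner and strand setting were not given in the sources used here. FPKM values were deposited by the authors in the same table and served only to compare genes per length. The authors' deposited log2 fold changes and p-values stand there too, from a tool that no source names, and are quoted only where named. The notes name mm9, but 98.3% of gene positions match GENCODE M21 exactly, and that annotation is on GRCm38, the build printed with coordinates.

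The test was edgeR 4.0.16 under R 4.3.3, with filterByExpr, TMM scaling, and a quasi-likelihood fit with 1 term per group over all 12 libraries. P-values were adjusted by Benjamini-Hochberg over 14855 genes in each of 4 comparisons, with 0.05 as threshold. Standard errors and 95% intervals derive from the F statistic. All replicate pairs differed by more than sampling noise, with a chi-square of 2.75 or more per gene. In a simulated luteolin comparison (5 draws over 14855 genes) 10.4% of genes changed 1.5-fold, 58.0% changed 2-fold and 94.0% changed 4-fold were called. Each gene was drawn separately, so the shift shared by many genes in the third induced libraries was not simulated. The changed genes were drawn only from those with a DMI mean above 1 CPM. These shares therefore do not cover Stra6, Aldh1a3, Crabp1 and Crabp2, whose DMI means lay below that.

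The members and lists were chosen with earlier results of these data known. All members are described; of the wider list, up to 6 called genes per comparison and the tested receptors are given with values, and likeness is the Pearson r of log2 CPM (prior count 2). Tgm2 and Rdh12 were named as called. A few genes that these rules select are counted but not reported here by name.

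Same-numbered luteolin and DMI libraries deviated together (r = 0.261, 0.337 and 0.590), every pair over 0.1. Unlike numbers among the first and second libraries did so too. Luteolin library 2 with DMI library 1 had r = 0.367, and luteolin library 1 with DMI library 2 had r = 0.226. The main fit held no pairing, and the number from the titles entered only as the replicate block among the alternatives. The labels do not say what it marks. Same-numbered quercetin and DMI libraries did not all reach 0.1. Alternatives were DESeq2 1.42.0, the replicate block, a fit of only the 6 libraries compared, leaving out each library, other scalings (RLE or plain totals), other filters (none, or 1 CPM in 3 libraries) and, added after seeing the data, leaving out the third library of all induced groups.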

Additional observations from a re-analysis of the deposited data

How the results depend on the processing

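Of 618 values of single members under alternatives, 575 kept their direction and their side of the threshold, 8 lost it, 22 gained it and 13 changed sign. DMI against untreated called 4024 genes, 1865 to 5569 on leaving out a library and 7970 with the third library of all induced groups left out; the members called were 3, and 1 to 4 on leaving out a library. For luteolin the 3 calls became 48 with DESeq2, 363 without a low-count filter, 25 with the replicate block, 0 with only the 6 libraries compared, 0 to 259 on leaving out a library and 1566 without the third libraries, where 2 members passed. For quercetin the 150 calls became 55 at 1 CPM in 3 libraries, 59 with library totals only, 984 with DESeq2, 1737 without a filter, 1395 with the replicate block, 0 with only the 6 libraries compared, 0 to 2646 on leaving out a library and 5049 without the third libraries; members called went from 0 to 1 with DESeq2, 3 without a filter, 2 with the block (Retsat, adjusted p = 0.0153, and Rdh10, 0.00336), 3 without the third libraries and 0 to 3 on leaving out a library. Between the flavonoids 0 calls became 3 with DESeq2, 450 without a filter, 14 with the block, 0 to 10 on leaving out a library and 2081 without the third libraries, with 2 members called in the last case and 2 without a filter. The cause was not tested; leaving out libraries also changes the spread and the number tested.

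All sign changes were in uncalled values on leaving out 1 library. Stra6 for DMI against untreated ran from -0.0900 (without untreated replicate 3) to 1.02. For luteolin, Rdh10 ran from -0.19 to 0.49, at -0.05, -0.01 and -0.19 without DMI replicates 1 or 2 or luteolin replicate 3; Crabp1 ran from -0.84 to 0.55, at 0.55 and 0.37 without DMI replicate 2 or luteolin replicate 2; and Cyp26b1 ran from -0.00216 (without DMI replicate 2) to 1.8004. For quercetin, Aldh1a3 ran from -1.53 to 0.51, at 0.51, 0.32 and 0.15 without DMI replicate 3 or quercetin replicates 1 or 2. Between the flavonoids, Crabp2 ran from -0.31 to 0.23, at -0.05 and -0.31 without luteolin replicate 2 or quercetin replicate 2, and Aldh1a3 from -0.78 (without quercetin replicate 3) to 1.61. The replicate block made Rdh10 a call for DMI against untreated too (-0.75, adjusted p = 0.00382), and it changed no other member's call; same-numbered libraries of those groups did not deviate together (r from -0.0144 to 0.0215). Depth limits Stra6, Aldh1a3, Crabp1 and Crabp2, which had at most 24 counts in any library.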

Other observations

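For the scarce members the likest genes by log2 CPM over the 12 libraries were Pan2, Prickle1 and Usp48 for Stra6 (r from 0.831 to 0.836), Rps19, Msln and Pcdhb5 for Aldh1a1 (0.876 to 0.885), Cdyl, Enpp5 and Plekhb2 for Aldh1a3 (0.966 to 0.975), Csnk1d and Ssh3 for Crabp1 (0.918 and 0.889) and Gpn1, Kdsr and Rammet for Crabp2 (0.828 to 0.866). These members had few counts, so the values describe sparse data.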
